A study of Mus with 12 samples.

Results

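The genes described here encode the proteasome, the barrel-shaped protease that degrades ubiquitin-tagged proteins in the cytosol and nucleus. They were chosen by name, as the rows of the deposited blood table whose symbol starts with Psm, then a letter from a to g and a digit. Of 52 such rows, Psma5-ps and Psmb7-ps2 were left out as pseudogenes and Psma8 was left out because it had no protein-coding transcript. The remaining 49 genes, of 25247 in the table, comprised 7 alpha and 4 structural beta subunits of the 20S core, 3 constitutive catalytic subunits, 3 immunoproteasome catalytic subunits, the thymoproteasome subunit Psmb11, 6 ATPases and 11 other subunits of the 19S cap, 6 activator or inhibitor genes and 7 assembly chaperones. Psmc3ip also carries the name, but it encodes a protein of meiotic recombination and is not a subunit.

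The libraries came from RNA of whole blood of 12 mice, all female BALB/c and 6 weeks old at purchase, 3 to each of 4 groups with 1 library a mouse. Mice were shaved on the back, and Solvent mice received only vehicle (acetone and olive oil). The other groups were sensitised on shaved back skin and the right ear with 1% 2,4-dinitrochlorobenzene (DNCB). Both sites were then challenged with 0.5% DNCB, a contact sensitiser that gives an atopic dermatitis-like disease. DNCB mice received nothing further, whereas both treated groups received 2000000 human umbilical cord mesenchymal stem cells (MSC) per dose on days 13, 17, 21 and 25, in 100 µL under the skin (scMSC) or as 50 µL under the skin and 50 µL into the tail vein (scivMSC). Blood was taken on day 30. No group received MSC without DNCB, and DNCB mice are not stated to have received an injection of culture solution, so MSC and injection cannot be told apart.

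The 20S core is a stack of rings of alpha and beta subunits, in which only a few beta subunits cut peptide bonds. In most cells these are Psmb6 (beta 1), Psmb7 (beta 2) and Psmb5 (beta 5). Leukocytes, and cells exposed to interferon gamma, replace them with Psmb9, Psmb10 and Psmb8, and this immunoproteasome favours peptides suited to MHC class I. Caps open the core: the 19S particle binds and unfolds ubiquitinated proteins, Psme1 and Psme2 form the interferon-inducible PA28 alpha-beta ring, Psme3 forms the nuclear PA28 gamma ring, and Psme4 encodes PA200.

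The libraries held 52.2e6 to 65.1e6 counts, of which 78.4% to 89.0% came from haemoglobin genes. Counts outside haemoglobin ranged from 8.92e6 to 12.8e6 in Solvent, 10.2e6 to 12.9e6 in DNCB, 7.88e6 to 8.48e6 in scMSC and 5.84e6 to 8.17e6 in scivMSC. Levels are given per total count (FPKM, which also corrects for gene length). Fold changes are also given scaled by the trimmed mean of M values (TMM, which centres the bulk of the genes). Both scalings are given because they can differ in sign, and the reason was not tested. A gene was tested if it reached 1 FPKM in at least 3 libraries, and called if edgeR gave an adjusted p under 0.05 with a fold over 2. Of the 49 genes, 40 passed this filter, as did 5527 genes in all. In whole blood, fewer cells of a type and less RNA per cell cannot be told apart.

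Blood after combined subcutaneous and intravenous MSC held less RNA of most proteasome genes per total count than blood of DNCB mice, as it did of most genes tested. In scivMSC against DNCB, 29 of 40 genes were called lower and 0 higher, beside 62% and 1.43% of all tested genes. The median log2 fold change of the 40 was -1.27, a smaller fall than the -1.53 over all genes. The 11 genes not called were Psme3, Psmf1, Psmd4, Psme4, Psmb5, Psmb6, Psmd6, Psmd14, Psmg2, Psmd10 and Psme2b. With TMM scaling 0 were called lower and 5 higher, beside 18.9% and 20.6% of all tested genes, and the medians were 0.27 and 0.04. The member median was 0.25 above the all-gene median under total-count scaling and 0.23 above it under TMM. Libraries did not overlap for 28 genes with scivMSC lower and 2 with scivMSC higher (Psmd4 and Psme3), beside 67.9% and 5.41% of all tested genes. Leaving out DNCB replicate 2, scivMSC replicate 2 or scivMSC replicate 3 left 17 lower calls in each case. The shares of all tested genes called in these fits were not computed.

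Few of these genes were called after DNCB alone. Against Solvent, 1 of 40 was called lower (Psme2b) and 0 higher, beside 4.87% and 15.6% of all tested genes, with a median log2 fold change of -0.28 against 0.06 over all genes. Without Solvent replicate 1 the member median was -0.0486. TMM scaling called 3 lower, Psme2b, Psmb10 and Psmg2, and 0 higher, beside 11.5% and 16.1% of all tested genes, with medians of -0.43 and -0.09. A total of 33 genes had a log2 fold change below 0 under total-count scaling and 36 under TMM. An unadjusted edgeR p under 0.05 was reached by 3 and 13 of the 40. The shares of all tested genes were not computed for these counts. Libraries did not overlap, with DNCB lower, for 8 of 40 genes, beside 16.5% of all tested genes, and with DNCB higher for 0, beside 25%.

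Subcutaneous MSC alone gave 2 lower calls against DNCB, Psma1 and Psmb9, beside 24.9% of all tested genes, and 0 higher calls, beside 1.27%. The member and all-gene medians were both -0.63. With TMM scaling the only call was Psme2b, which was higher, beside 8.74% of all tested genes and 12.3% called lower, and the medians were 0.03 and 0.06. No call for Psma1 or Psmb9 was made after leaving out DNCB replicate 2, scMSC replicate 2 or scMSC replicate 3. Without DNCB replicate 3 or scMSC replicate 1, 1 call was left, while 4 genes were called without scivMSC replicate 1 or scivMSC replicate 2. The shares of all tested genes called in these fits were not computed.

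The routes compared directly gave 4 lower calls in scivMSC against scMSC, namely Psmc6, Psme2b, Psmb10 and Psmg4, beside 30.4% of all tested genes, and 0 higher, beside 0.344%. TMM scaling gave 5 higher calls and 1 lower call, beside 13.1% and 4.92%. Under total-count scaling, 26 genes were called without scivMSC replicate 1. The number was 2 without Solvent replicate 2, DNCB replicate 1 or scMSC replicate 3. It was 1 without scMSC replicate 1, scivMSC replicate 2 or scivMSC replicate 3. The shares of all tested genes called in these fits were not computed.

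Against Solvent, edgeR called 31 of 40 genes lower and 0 higher in scivMSC, beside 59.2% and 2.59% of all tested genes, with medians of -1.67 and -1.47. TMM scaling called 6 higher and 4 lower, beside 22.4% and 13.4%. For scMSC against Solvent edgeR called 0 genes in either direction, beside 0.326% lower and 0.326% higher over all tested genes. An unadjusted p under 0.05 was reached by 20 of 40, DESeq2 and TMM each called 1 gene (Psmb9, lower; with TMM 1.21% of all tested genes were called lower and 7.27% higher), and the fit of these 6 libraries alone called 19. Without scivMSC replicate 1 or scivMSC replicate 2, which belong to neither group, 7 and 11 genes were called. The shares of all tested genes for the 20, 19, 7 and 11 were not computed. In scMSC against Solvent the median log2 fold change was -0.59 over all tested genes and -0.99 over the 40. These comparisons share the Solvent or DNCB libraries with those above. An edgeR test for any difference among the 4 groups passed for 29 of 40 genes (72.5%) and 3997 of 5527 genes overall (72.3%).

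Among the constitutive catalytic subunits, Psmb5 had the log2 fold change closest to 0 in scivMSC against DNCB under total-count scaling. Psmb5 (ENSMUSG00000022193, chromosome 14, 54614119 to 54618022, minus strand) encodes the chymotrypsin-like beta 5 subunit. It stood at 6.00, 4.18 and 4.02 FPKM in the Solvent libraries, 4.42, 4.44 and 3.50 in DNCB, 3.47, 2.47 and 2.53 in scMSC, and 5.08, 2.86 and 2.73 in scivMSC. The scivMSC libraries overlapped those of DNCB and of Solvent, and scMSC lay below both. In scivMSC against DNCB its log2 fold change was -0.21 ± 0.39 (SE; edgeR adjusted p = 0.642), but 1.38 ± 0.21 with TMM scaling (adjusted p = 0.000142).

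Psmb6 (ENSMUSG00000018286, chromosome 11, 70525367 to 70527858, plus strand) encodes the caspase-like beta 1 subunit. Its levels were 3.85, 2.53 and 1.90 FPKM in Solvent, 1.51, 2.75 and 1.88 in DNCB, 1.75, 0.701 and 1.49 in scMSC, and 2.20, 0.702 and 0.963 in scivMSC. All groups overlapped except scMSC and Solvent. The log2 fold change in scivMSC against DNCB was -0.66 (edgeR adjusted p = 0.244), and 0.86 under TMM (adjusted p = 0.0171), a fold under 2. Without scivMSC replicate 1 it was called lower, at -1.28 (adjusted p = 0.0241).

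Psmb7 (ENSMUSG00000026750, chromosome 2, 38588036 to 38644087, minus strand) encodes the trypsin-like beta 2 subunit and was the constitutive catalytic gene called lower. It was measured at 2.53, 1.71 and 1.48 FPKM in Solvent, 1.64, 1.89 and 1.28 in DNCB, 1.20, 0.571 and 0.944 in scMSC, and 1.09, 0.138 and 0.467 in scivMSC. Every scivMSC library lay below every DNCB library, with scivMSC replicate 2 lowest at 27 counts. The log2 fold change was -1.50 ± 0.56 (SE; edgeR adjusted p = 0.0245), and -0.10 with TMM (adjusted p = 0.818). The call was lost without DNCB replicate 2 (adjusted p = 0.0675), scivMSC replicate 2 (0.054) or scivMSC replicate 3 (0.0744). Nek6, on the opposite strand, overlaps 6571 bases of the Psmb7 locus, and the strand setting of the counting is not given in the sources used here.

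All 3 immunoproteasome subunits were called lower in scivMSC against DNCB and against Solvent under total-count scaling, where 62% and 59.2% of all tested genes were. Psmb8 (ENSMUSG00000024338, chromosome 17, 34197721 to 34201454, plus strand), the inducible partner of Psmb5, stood at 8.63, 4.56 and 4.73 FPKM in Solvent, 3.53, 3.82 and 2.56 in DNCB, 3.02, 2.26 and 2.52 in scMSC, and 1.87, 0.496 and 1.36 in scivMSC. DNCB lay below Solvent without overlap, scMSC overlapped DNCB, and scivMSC lay below the other 3 groups. In DNCB against Solvent the log2 fold change was -0.85 (edgeR adjusted p = 0.17), and -0.97 with TMM (adjusted p = 0.0029), a fold just under 2. For scivMSC it was -1.41 ± 0.43 against DNCB (SE; edgeR adjusted p = 0.00836; 0.09 with TMM, adjusted p = 0.737) and -2.26 ± 0.44 against Solvent (edgeR adjusted p = 0.000517; -0.87 with TMM, adjusted p = 0.00458).

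Psmb9 (ENSMUSG00000096727, chromosome 17, 34181987 to 34187764, minus strand), the inducible partner of Psmb6, lies near Psmb8 in the MHC class II region. It stood at 5.95, 2.42 and 2.83 FPKM in Solvent, 2.57, 4.15 and 3.01 in DNCB, 1.73, 0.911 and 1.08 in scMSC, and 0.795, 0.265 and 0.601 in scivMSC. Solvent and DNCB overlapped, and the order below them was scMSC and then scivMSC, each without overlap. Against DNCB the log2 fold change was -1.39 ± 0.45 in scMSC (SE; edgeR adjusted p = 0.0302), and scivMSC gave -2.54 ± 0.47 (adjusted p = 0.000237). Psmb9 stayed below DNCB under TMM, at -0.71 for scMSC (adjusted p = 0.0389) and at -1.0 for scivMSC (adjusted p = 0.00437), in both cases a fold under 2. The scMSC call was lost without DNCB replicate 2 (adjusted p = 0.131), DNCB replicate 3 (0.0505), scMSC replicate 2 (0.138) or scMSC replicate 3 (0.107). In scivMSC against Solvent it was called under both scalings, at -2.74 ± 0.48 (adjusted p = 0.000273) and -1.29 (adjusted p = 0.000942). The Psmb9 and Tap1 loci share 212 bases on opposite strands, and Tap1, a peptide transporter gene, averaged 771 counts beside 513 for Psmb9.

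Psmb10 (ENSMUSG00000031897, chromosome 8, 105935735 to 105938104, minus strand), the inducible partner of Psmb7, had the lowest DNCB level relative to Solvent of the catalytic genes. Its levels were 7.88, 4.07 and 4.22 FPKM in Solvent, 2.10, 3.29 and 1.69 in DNCB, 3.32, 1.81 and 1.88 in scMSC, and 1.05, 0.318 and 0.919 in scivMSC. DNCB and scMSC overlapped each other, lay below Solvent and lay above scivMSC. The log2 fold change in DNCB against Solvent was -1.17 ± 0.48 (SE; edgeR adjusted p = 0.0933), and -1.31 ± 0.26 with TMM (adjusted p = 0.00145), where it was called. It was also called under total-count scaling without scivMSC replicate 2 (adjusted p = 0.0282). In scivMSC it was -1.61 ± 0.49 against DNCB (edgeR adjusted p = 0.00811), -1.58 ± 0.49 against scMSC (adjusted p = 0.0257) and -2.79 ± 0.51 against Solvent (adjusted p = 0.000342). Their TMM values were -0.05, -0.72 and -1.36, of which only the last was called (adjusted p = 0.0011). The call against scMSC was lost without scMSC replicate 1 (adjusted p = 0.108), scivMSC replicate 2 (0.0699) or scivMSC replicate 3 (0.0538).

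**Figure D1:**
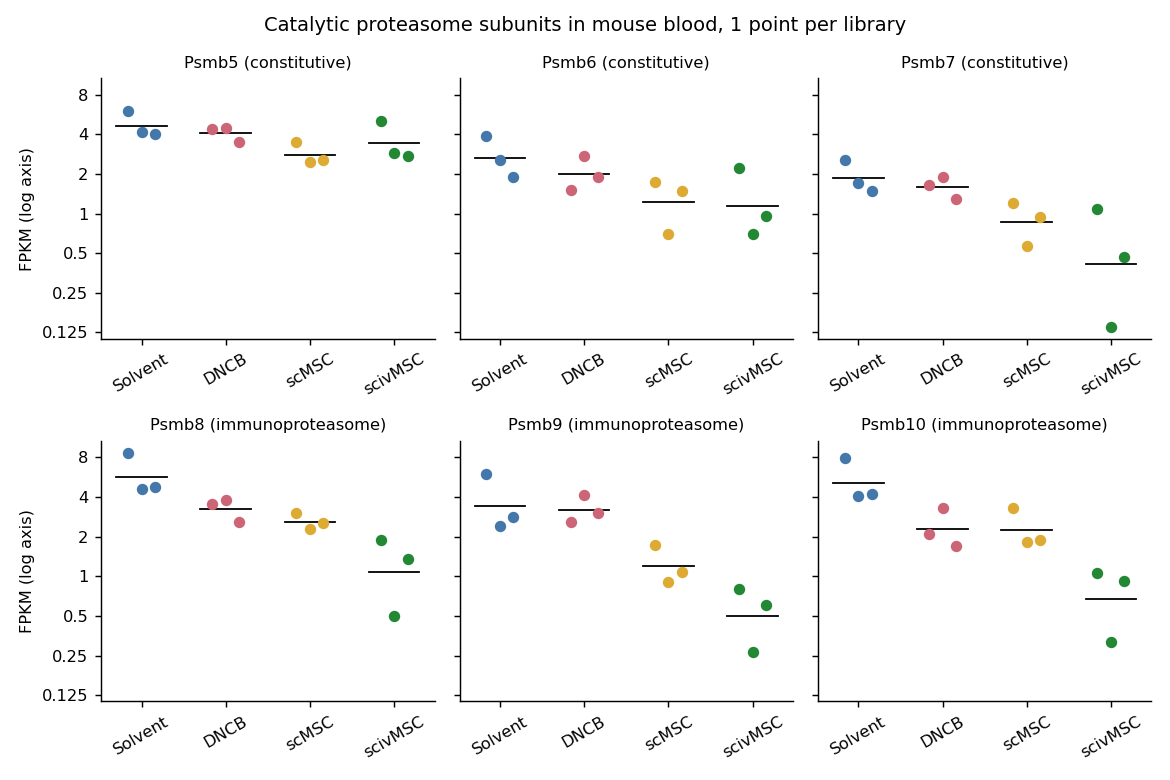
FPKM of the 6 catalytic subunit genes in each of the 12 blood libraries, on a log axis shared by all panels. Points are libraries, 3 per group, and black lines are geometric means. The scivMSC libraries of Psmb8, Psmb9 and Psmb10 lie below every DNCB library, whereas those of Psmb5 and Psmb6 overlap DNCB.

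A ratio of 2 genes within a library does not depend on how libraries are scaled, so the balance of inducible and constitutive subunits was also measured as the FPKM ratio of each pair. Psmb8 over Psmb5 was lowest in scivMSC. The ratio was 1.44, 1.09 and 1.18 in Solvent, 0.799, 0.860 and 0.731 in DNCB, 0.871, 0.916 and 0.996 in scMSC, and 0.368, 0.173 and 0.498 in scivMSC. No 2 groups overlapped, in the order Solvent, scMSC, DNCB and scivMSC from high to low. An exact permutation test, two-sided and enumerating all 369600 group assignments, gave p = 6.494e-05, the smallest it can give, and 0.000195 adjusted over the 3 ratios. On geometric means the ratio in scivMSC was 0.398 of that in DNCB and 0.258 of that in Solvent.

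Psmb9 over Psmb6 also differed among groups (exact permutation p = 0.00175, adjusted p = 0.00263). It was 1.55, 0.954 and 1.49 in Solvent, 1.69, 1.51 and 1.60 in DNCB, 0.989, 1.30 and 0.729 in scMSC, and 0.361, 0.378 and 0.625 in scivMSC. Solvent overlapped DNCB and scMSC, and scivMSC lay below every other library. The scivMSC ratio was 0.275 of the DNCB ratio, and that in scMSC 0.612 of it.

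Psmb10 over Psmb7 followed another order. The values were 3.12, 2.38 and 2.86 in Solvent, 1.28, 1.74 and 1.32 in DNCB, 2.77, 3.18 and 1.99 in scMSC, and 0.966, 2.31 and 1.97 in scivMSC. DNCB lay below Solvent and scMSC without overlap, at 0.518 of Solvent, and scivMSC spanned the DNCB range. The exact permutation p was 0.0506 (adjusted p = 0.0506). It came to 0.0149, 0.0403 and 0.0482 without scivMSC replicate 1, scivMSC replicate 2 and scMSC replicate 3, and with 1 added to each FPKM it was 0.00253. For any single pair of groups with 3 libraries each, the exact test cannot go below 0.1.

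**Figure D2:**
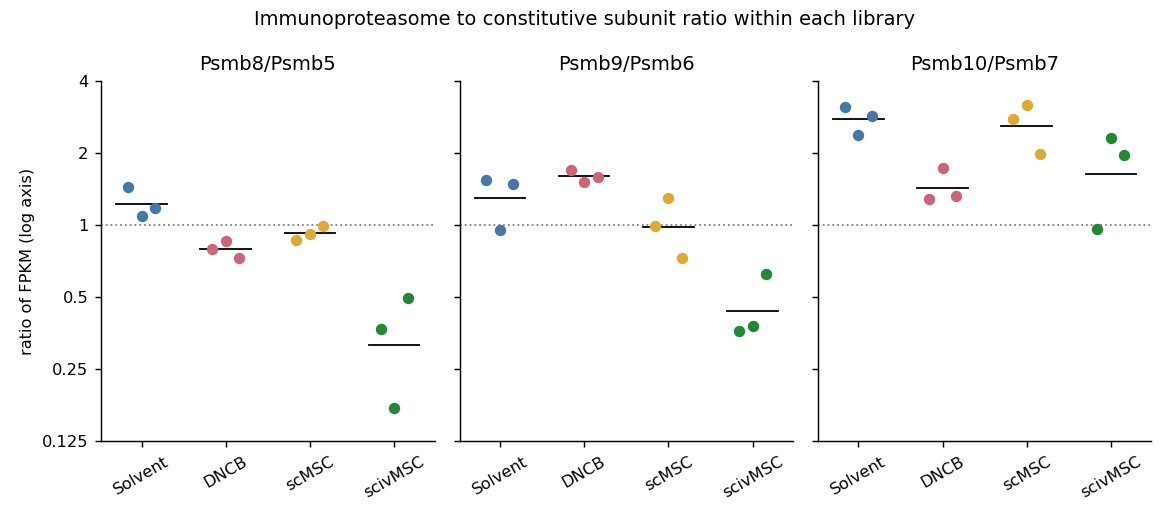
Ratio of the immunoproteasome subunit to its constitutive partner within each library, on a log axis. Points are libraries, black lines geometric means and the dotted line a ratio of 1. For Psmb8/Psmb5 and Psmb9/Psmb6 every scivMSC library lies below every other library, and for Psmb10/Psmb7 the 3 DNCB libraries lie below those of Solvent and scMSC.

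Leukocyte marker genes also differed among the groups, and the lists did not all move the same way. The summed FPKM of 5 pan-leukocyte markers was 84.9 to 160 in Solvent, 176 to 259 in DNCB, 64.2 to 89.0 in scMSC and 25.2 to 50.7 in scivMSC. All 5 were called lower in scivMSC against DNCB, beside 62% of all tested genes. For 8 neutrophil markers the sums were 214 to 438, 6468 to 10200, 527 to 676 and 205 to 628 in the same order. All 8 were called higher in DNCB against Solvent, beside 15.6% of all tested genes. The pan-leukocyte and neutrophil sums were higher in DNCB than in Solvent, and both were lower in scMSC than in DNCB. The 6 T cell markers summed to 40.6 to 65.9 in Solvent, 15.9 to 23.5 in DNCB, 21.3 to 29.8 in scMSC and 5.38 to 14.3 in scivMSC. The 6 B cell markers summed to 40.5 to 128, 11.3 to 32.3, 12.4 to 17.1 and 3.14 to 7.63. In DNCB against Solvent 5 and 6 of them were called lower, beside 4.87% of all tested genes. Their median log2 fold changes there were -1.62 and -2.11. In scMSC against DNCB the T cell median was 0.52 and the B cell median -0.28. Of the lists named so far none had a gene at 0 counts throughout a group, and 1 of 6 monocyte markers was at 0 in all 3 scivMSC libraries. Of 4 tested NK cell markers, 1 was called lower in scivMSC against DNCB, beside 62% of all tested genes. The 8 platelet markers summed to 389 to 614 FPKM in Solvent, 607 to 836 in DNCB, 737 to 957.5 in scMSC and 757 to 893 in scivMSC. Of these, 0 were called lower in scivMSC against DNCB. In scivMSC against Solvent 5 were called higher, beside 2.59% of all tested genes. Of 9 erythroid markers, 0 were called in scivMSC against DNCB, beside 62% of all tested genes called lower and 1.43% higher. With TMM the median log2 fold changes there were 1.95 for erythroid and 1.98 for platelet markers, beside 0.04 over all tested genes. For pan-leukocyte, neutrophil, monocyte, T cell, B cell and NK cell markers they were -1.25, -2.72, -1.85, 0.70, -0.12 and 0.99. The part of cell makeup in the subunit levels and ratios was not tested.

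The 11 structural core genes moved together. All 7 alpha and all 4 structural beta genes were called lower in scivMSC against DNCB, with log2 fold changes from -2.10 to -1.17 and from -1.84 to -1.18, while TMM placed them between -0.60 and 0.43 with 0 calls. Of all tested genes 62% were called lower there, with a median of -1.53. Psma1, an alpha ring subunit, was the alpha gene with the lowest value. It stood at 3.55, 2.14 and 1.76 FPKM in Solvent, 2.71, 4.04 and 2.45 in DNCB, 1.14, 0.907 and 1.31 in scMSC, and 1.26, 0.326 and 0.528 in scivMSC. Both MSC groups lay below DNCB without overlap and overlapped each other. The log2 fold change against DNCB was -1.46 ± 0.47 in scMSC (SE; edgeR adjusted p = 0.0287; TMM -0.75, adjusted p = 0.0177) and -2.10 ± 0.48 in scivMSC (adjusted p = 0.00125; TMM -0.60, adjusted p = 0.0336), and DNCB against Solvent gave 0.31 (adjusted p = 0.698).

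At the other end of the alpha genes, Psma2 stood at 3.24, 1.76 and 2.10 FPKM in Solvent, 2.18, 2.21 and 1.60 in DNCB, 1.55, 0.832 and 1.08 in scMSC, and 1.27, 0.725 and 0.660 in scivMSC. All scivMSC libraries lay below all DNCB libraries, at a log2 fold change of -1.17 (edgeR adjusted p = 0.0168; TMM 0.43, adjusted p = 0.126). The adjusted p was 0.0501 without DNCB replicate 2 and 0.0746 without scivMSC replicate 3. Psma4 had the lowest alpha value in DNCB against Solvent, -0.62 (adjusted p = 0.425). Its levels were 3.78, 2.35 and 1.89 FPKM in Solvent, 2.31, 1.86 and 1.05 in DNCB, 0.845, 1.08 and 1.58 in scMSC, and 0.849, 0.575 and 0.192 in scivMSC.

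The structural beta ring genes behaved alike. Psmb3 stood at 3.26, 2.42 and 2.36 FPKM in Solvent, 2.27, 3.62 and 2.10 in DNCB, 1.22, 0.960 and 1.60 in scMSC, and 1.49, 0.218 and 0.509 in scivMSC. Its log2 fold change in scivMSC against DNCB was -1.84 ± 0.54 (SE; edgeR adjusted p = 0.00714; TMM -0.42, adjusted p = 0.286), the lowest of this role. Psmb2 gave the highest, -1.18 (adjusted p = 0.0406; TMM 0.35, adjusted p = 0.429), from 4.85, 4.13 and 2.59 FPKM in Solvent, 2.25, 2.44 and 2.80 in DNCB, 2.73, 1.66 and 1.39 in scMSC, and 1.85, 0.905 and 0.491 in scivMSC. In both genes the DNCB and scivMSC libraries did not overlap. The call for Psmb2 was lost in 7 of 12 fits without 1 library: Solvent replicate 2, any DNCB replicate, scMSC replicate 2, scivMSC replicate 2 or scivMSC replicate 3, with adjusted p from 0.0507 to 0.166. Psmb2 also gave the lowest value of the role in DNCB against Solvent, -0.62 (adjusted p = 0.396), and Psmb1 the highest, 0.02 (adjusted p = 0.976). Psmb1 stood at 3.38, 1.87 and 2.04 FPKM in Solvent, 2.16, 3.11 and 2.14 in DNCB, 1.38, 0.848 and 1.66 in scMSC, and 1.30, 0.556 and 0.619 in scivMSC.

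In the 19S cap, the ATPases form the ring that unfolds substrates. All 5 tested ATPase genes were called lower in scivMSC against DNCB, from -1.56 to -1.12, beside 62% of all tested genes. Their median of -1.32 lay above the all-gene median of -1.53, and TMM placed them between -0.02 and 0.48 with 0 calls. Psmc6 stood at 2.08, 1.37 and 1.65 FPKM in Solvent, 1.03, 1.59 and 1.17 in DNCB, 1.24, 0.726 and 0.938 in scMSC, and 0.654, 0.243 and 0.374 in scivMSC. The scivMSC libraries lay below those of every other group. The log2 fold change was -1.56 ± 0.43 against DNCB (SE; edgeR adjusted p = 0.00493; TMM -0.02) and -1.18 ± 0.43 against scMSC (adjusted p = 0.0457; TMM -0.32). The latter call was lost in 9 of 12 fits that left out 1 library, all but those without Solvent replicate 1, scMSC replicate 2 or scivMSC replicate 1, with adjusted p from 0.0502 to 0.166.

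Psmc3 gave the highest ATPase value, -1.12 (edgeR adjusted p = 0.0173; TMM 0.48, adjusted p = 0.0943), from 3.85, 2.84 and 2.84 FPKM in Solvent, 2.22, 2.89 and 2.51 in DNCB, 2.22, 1.39 and 2.94 in scMSC, and 1.63, 0.898 and 0.963 in scivMSC. The call was lost without DNCB replicate 2 (adjusted p = 0.0557) or scivMSC replicate 3 (0.0697), and without scivMSC replicate 2 the fold was under 2 (-0.963). In DNCB against Solvent the ATPases ran from Psmc1 at -0.55 (adjusted p = 0.404) to Psmc4 at -0.07 (adjusted p = 0.945). Psmc1 stood at 5.41, 3.53 and 3.38 FPKM in Solvent, 2.68, 3.25 and 2.47 in DNCB, 2.28, 1.55 and 1.92 in scMSC, and 1.92, 0.590 and 0.851 in scivMSC. Its DNCB libraries lay below Solvent without overlap. Psmc4 stood at 3.47, 1.96 and 1.77 FPKM in Solvent, 1.93, 2.62 and 2.34 in DNCB, 1.57, 0.831 and 1.79 in scMSC, and 1.68, 0.515 and 0.504 in scivMSC, with DNCB inside the Solvent range.

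Of the non-ATPase subunits of the cap, 6 of 9 tested genes were called lower in scivMSC against DNCB, near the 62% over all tested genes. Psmd6 (-1.22, edgeR adjusted p = 0.0513) and Psmd14 (-1.15, adjusted p = 0.0548) just missed the threshold, with folds within the range of the called genes. Psmd3, a scaffold subunit of the cap, gave the lowest value, -1.71 ± 0.54 (SE; edgeR adjusted p = 0.0104; TMM -0.32, adjusted p = 0.435). It stood at 2.61, 1.36 and 1.83 FPKM in Solvent, 1.28, 1.30 and 1.18 in DNCB, 1.01, 0.435 and 0.665 in scMSC, and 0.776, 0.148 and 0.210 in scivMSC. The DNCB libraries lay below Solvent and above both MSC groups, and DNCB against Solvent gave -0.62 (adjusted p = 0.442). Psmd13 had the highest value of the role there, 0.48 (adjusted p = 0.464), from 2.39, 1.70 and 1.39 FPKM in Solvent, 2.10, 3.41 and 2.14 in DNCB, 1.56, 1.08 and 1.35 in scMSC, and 1.76, 0.559 and 1.02 in scivMSC. Sirt3, on the opposite strand, overlaps 342 bases of Psmd13.

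Psmd4, the ubiquitin receptor Rpn10, stood apart from the rest of the cap. It was measured at 13.8, 7.81 and 7.44 FPKM in Solvent, 8.84, 9.01 and 9.93 in DNCB, 10.9, 8.45 and 13.6 in scMSC, and 13.1, 11.5 and 10.8 in scivMSC. Every scivMSC library lay above every DNCB library. The log2 fold change in scivMSC against DNCB was 0.34 ± 0.30 (SE; edgeR adjusted p = 0.319), and 2.01 ± 0.26 with TMM (adjusted p = 3.88e-05).

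**Figure D3:**
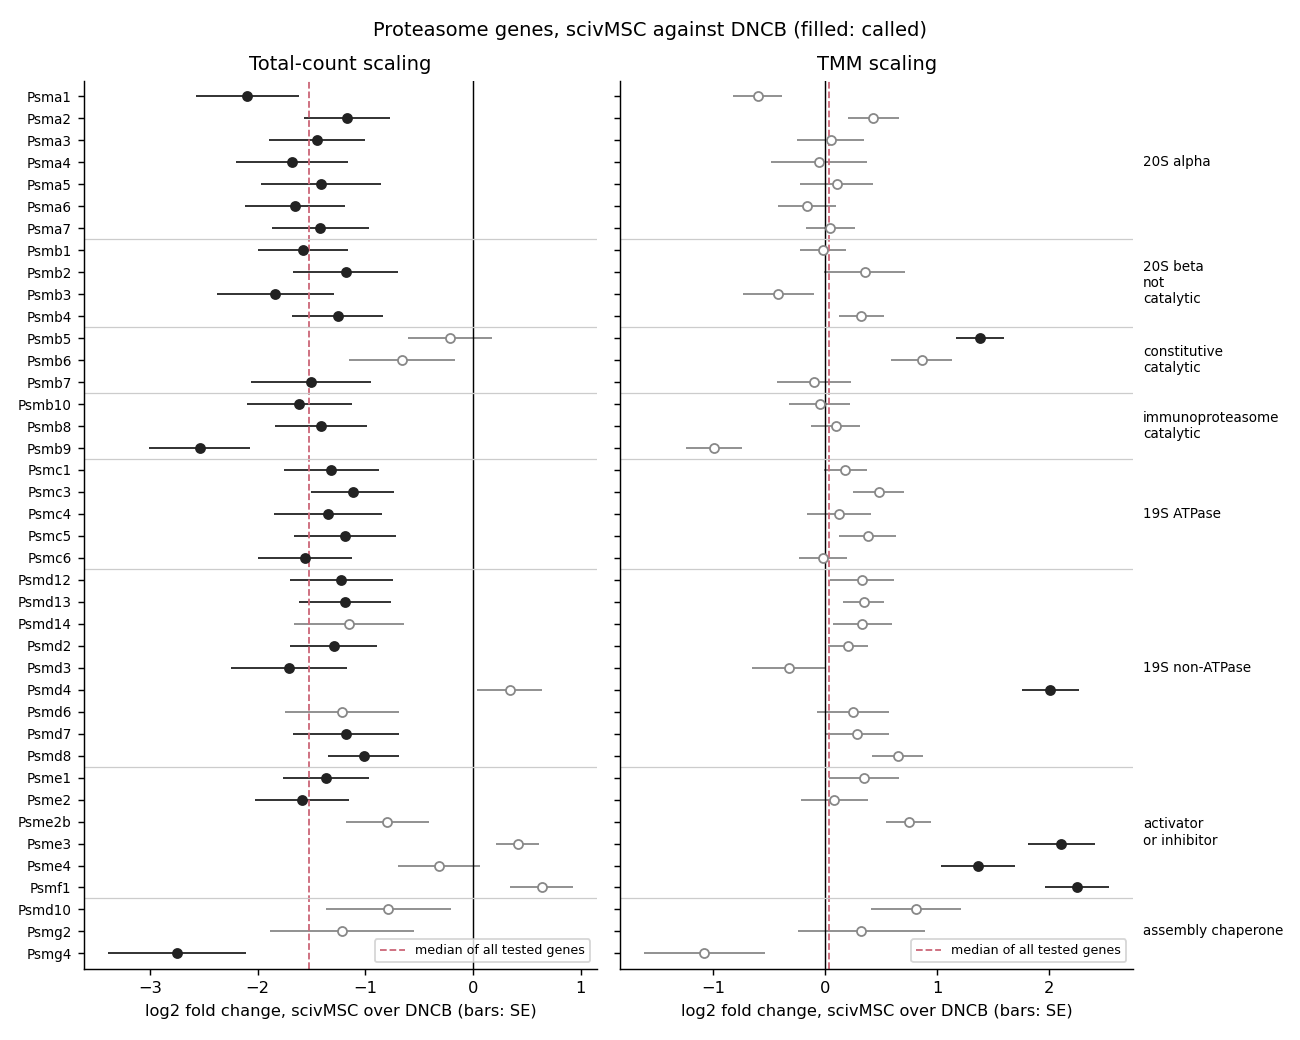
log2 fold change of the 40 tested proteasome genes in scivMSC against DNCB, grouped by role, with total-count scaling on the left and TMM scaling on the right. Points are fitted values, bars are SE, filled points were called, and the dashed line is the median of all tested genes, -1.53 on the left and 0.04 on the right. Psmd4, Psme3, Psme4, Psmf1 and Psmb5 lie furthest to the right on both scales. Psmb6, Psmd10, Psme2b, Psmd8 and Psmc3 also lie to the right of every structural core gene on both. The value of Psmg4 rests on very low counts in scivMSC.

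Among the activators, Psme3 was by far the most abundant proteasome gene, and the highest of the 49 in all 12 libraries. It stood at 100.3, 77.5 and 89.1 FPKM in Solvent, 71.7, 70.4 and 83.9 in DNCB, 92.3, 70.3 and 77.2 in scMSC, and 103, 106 and 93.2 in scivMSC. The scivMSC libraries lay above DNCB and scMSC and overlapped Solvent. In scivMSC against DNCB the log2 fold change was 0.41 ± 0.20 (SE; edgeR adjusted p = 0.0704), and 2.11 ± 0.30 with TMM (adjusted p = 7.5e-05). Psme3 made up 33.3% to 45.1% of the summed FPKM of all 49 genes in Solvent and DNCB, 47.2% to 51.6% in scMSC and 54.7% to 70.1% in scivMSC.

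Psme1 and Psme2, the interferon-inducible pair, went with the core. Psme1 stood at 11.7, 6.12 and 6.82 FPKM in Solvent, 4.63, 7.41 and 5.60 in DNCB, 5.04, 1.84 and 3.40 in scMSC, and 2.71, 2.47 and 1.66 in scivMSC. Psme2 stood at 4.55, 2.62 and 2.23 FPKM in Solvent, 3.56, 3.82 and 2.19 in DNCB, 2.41, 1.35 and 1.15 in scMSC, and 1.06, 0.806 and 1.29 in scivMSC. In both genes all scivMSC libraries lay below all DNCB libraries. Their log2 fold changes were -1.36 ± 0.40 (SE; edgeR adjusted p = 0.00687; TMM 0.35) and -1.59 ± 0.44 (adjusted p = 0.00469; TMM 0.08), and neither was called with TMM (adjusted p = 0.366 and 0.833).

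Psme4, which encodes the PA200 cap, was measured at 1.95, 0.847 and 1.27 FPKM in Solvent, 1.16, 1.39 and 1.52 in DNCB, 1.12, 0.673 and 0.893 in scMSC, and 1.37, 1.25 and 0.661 in scivMSC. Groups overlapped except scMSC and DNCB, and scivMSC against DNCB gave -0.32 (edgeR adjusted p = 0.463; TMM 1.36, adjusted p = 0.00359). Psmf1, the inhibitor PI31, stood at 6.29, 3.86 and 5.17 FPKM in Solvent, 3.72, 4.47 and 6.17 in DNCB, 4.88, 4.95 and 6.23 in scMSC, and 8.47, 5.94 and 8.03 in scivMSC. Its scivMSC range overlapped DNCB by 1 library, with a log2 fold change of 0.64 ± 0.29 (SE; edgeR adjusted p = 0.0614; TMM 2.25, adjusted p = 3.75e-05). With haemoglobin left out of totals and tests it was called higher (1.19, adjusted p = 0.000542).

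Psme2b, a near-identical copy of Psme2 whose reads may be shared with it, was the only member called in DNCB against Solvent under total-count scaling. It stood at 20.3, 15.2 and 14.4 FPKM in Solvent, 5.95, 7.30 and 5.71 in DNCB, 9.28, 6.77 and 8.14 in scMSC, and 5.96, 2.60 and 2.35 in scivMSC. DNCB lay below Solvent without overlap, at a log2 fold change of -1.39 ± 0.39 (SE; edgeR adjusted p = 0.016; TMM -1.55, adjusted p = 5.69e-05). Without Solvent replicate 1, DNCB replicate 1 or DNCB replicate 3 the adjusted p was 0.0512, 0.0656 and 0.0634. Psme2 itself gave 0.03 in the same comparison (adjusted p = 0.973). On the same strand, Gm12185 overlaps 837 bases of Psme2b and averaged 36.5 counts, and 9930111J21Rik1 overlaps 41 bases and averaged 259.8 counts.

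Set against the structural core of the same library, several genes with small changes stood higher in scivMSC than in the other groups, while Solvent and DNCB overlapped for each. This view was chosen after their values were seen and has no test. The median FPKM of the 11 structural 20S genes was 2.10 to 3.56 in Solvent, 2.14 to 2.76 in DNCB, 0.938 to 1.45 in scMSC and 0.556 to 1.30 in scivMSC. Psme3 stood at 28.2 to 42.5 times that median in Solvent, 25.5 to 39.3 in DNCB, 55.7 to 75.0 in scMSC and 79.5 to 190 in scivMSC. Psmf1 stood at 1.64 to 2.47, 1.62 to 2.89, 3.37 to 5.28 and 6.52 to 13 times the median in the same order, and Psmd4 at 3.32 to 3.89, 3.26 to 4.65, 7.49 to 9.83 and 10.1 to 20.6 times. For all 3 genes scMSC lay above Solvent and DNCB, and scivMSC above scMSC. Psmb5 stood at 1.69 to 1.92, 1.61 to 1.96, 1.82 to 2.63 and 3.91 to 5.15 times the median, and Psme4 at 0.360 to 0.606, 0.505 to 0.712, 0.644 to 0.772 and 1.06 to 2.25 times. For both, scMSC overlapped DNCB and scivMSC lay above all other groups. Psme1, at 2.60 to 3.29, 2.05 to 2.69, 1.97 to 3.47 and 2.09 to 4.44 times, overlapped among all 4 groups.

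**Figure D4:**
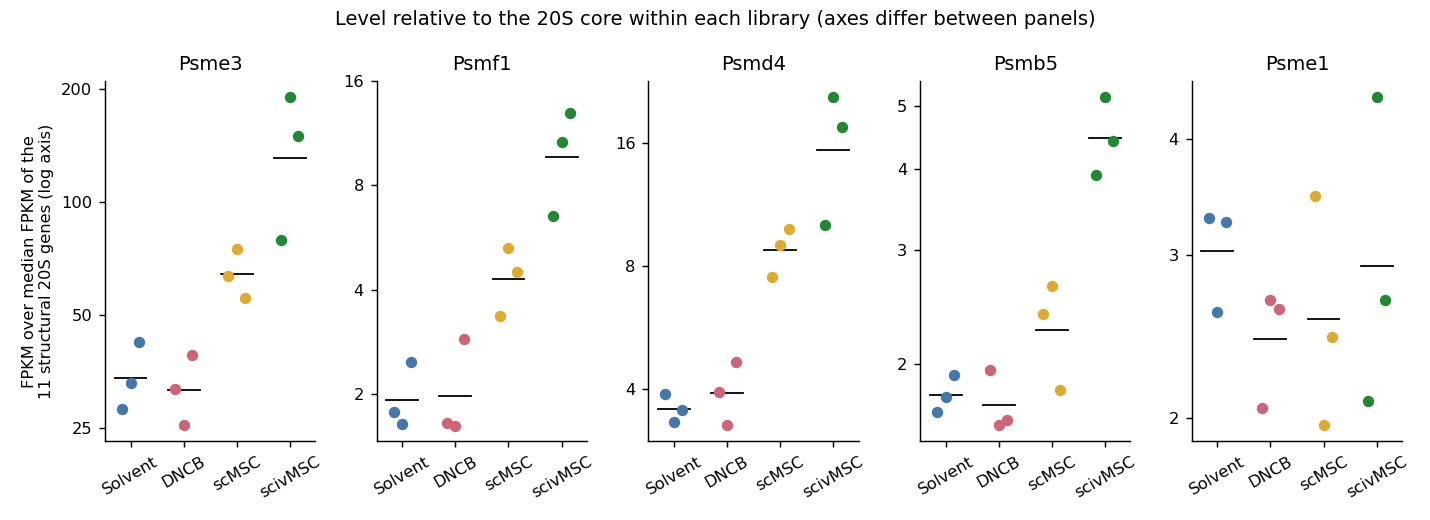
FPKM of 5 proteasome genes divided by the median FPKM of the 11 structural 20S genes of the same library, on log axes that differ between panels. Points are libraries and black lines geometric means. Psme3, Psmf1 and Psmd4 are higher relative to the core in scMSC and higher again in scivMSC, Psmb5 in scivMSC, and Psme1 overlaps among all groups.

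Of the assembly chaperones, 3 of 7 were tested. Psmg4 stood at 3.56, 2.63 and 1.65 FPKM in Solvent, 1.54, 1.38 and 1.12 in DNCB, 1.97, 0.644 and 1.67 in scMSC, and 0.113, 0.182 and 0.227 in scivMSC. The scivMSC libraries held 4, 6 and 9 counts, under a floor set at 12 counts per library, which may be about 3 fragments. Taken at that floor, Psmg4 was at least 3.58-fold lower per total count than in DNCB and at least 6.90-fold lower than in Solvent. The fitted TMM value against DNCB was -1.08 (edgeR adjusted p = 0.108), so the call was lost there, and that against Solvent was -2.14 (adjusted p = 0.00514). Psmg2, a partner of Psmg1 in building the alpha ring, stood at 1.55, 1.08 and 1.09 FPKM in Solvent, 0.497, 0.626 and 0.195 in DNCB, 0.156, 0.611 and 0.756 in scMSC, and 0.331, 0.111 and 0.111 in scivMSC. Every Solvent library lay above all others, and DNCB against Solvent gave -1.49 ± 0.65 (SE; edgeR adjusted p = 0.12), and -1.68 with TMM (adjusted p = 0.0245). Psmd10, the 19S chaperone gankyrin, was not called there (0.28, adjusted p = 0.788) or in scivMSC against DNCB (-0.79, adjusted p = 0.234; TMM 0.81, adjusted p = 0.105). Its levels were 2.45, 1.16 and 0.577 FPKM in Solvent, 1.14, 2.29 and 1.64 in DNCB, 1.37, 0.543 and 0.795 in scMSC, and 1.51, 0.797 and 0.628 in scivMSC.

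The 9 genes that were not tested were Psmb11, Psmc2, Psmc3ip, Psmd1, Psmd5, Psmd9, Psmd11, Psmg1 and Psmg3, whose highest FPKM in any library was 1.72. Psmb11, the catalytic subunit of thymic epithelium, had 0 counts in 11 libraries and 12 counts in scivMSC replicate 3. Of the 49 genes, 19 overlap another gene of the table.

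Regulators and partners of the proteasome were read from a list of 27 genes not picked for how they moved, of which 22 were tested. Between DNCB and Solvent, 3 of 22 were called higher and 1 lower under both scalings, beside 15.6% and 4.87% of all tested genes under total-count scaling and 16.1% and 11.5% with TMM. The higher genes were Sem1, a small 19S subunit (1.98 to 4.94 mean FPKM; log2 fold change 1.32, edgeR adjusted p = 0.0146), Nfe2l2, the oxidative stress factor (2.20 to 5.47; 1.31, adjusted p = 0.0213), and Ddi2, the protease that activates the proteasome gene regulator Nfe2l1 (0.824 to 2.29; 1.48, adjusted p = 0.0457). Nlrc5, the transactivator of MHC class I and immunoproteasome genes, was called lower, from 2.86 to 0.813 mean FPKM (-1.81, adjusted p = 0.00295; TMM -1.93, adjusted p = 5.02e-06).

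In scivMSC against DNCB, 18 of the 22 genes were called lower and 0 higher, beside 62% and 1.43% of all tested genes, with a median log2 fold change of -1.55 against -1.53. TMM called 3 lower and 3 higher, beside 18.9% and 20.6%. The interferon factor Irf1 (-2.57, edgeR adjusted p = 3.38e-05) and the peptide transporter genes Tap1 (-1.89, adjusted p = 0.000615) and Tap2 (-2.27, adjusted p = 0.000192) were among those called lower. With TMM, edgeR still called Irf1 lower (-1.005, adjusted p = 0.000162). It did not call Tap1 (-0.35, adjusted p = 0.153) or Tap2 (-0.69, adjusted p = 0.00793, a fold under 2). Ubb, which encodes polyubiquitin, was not called (0.95, a fold under 2) but was called higher with TMM (2.65, adjusted p = 3.05e-05). Its mean FPKM in Solvent, DNCB, scMSC and scivMSC was 569, 473, 812 and 914.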

How the data were processed

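Blood libraries of 12 mice were grouped by the submitters' labels. The deposited table holds, per gene and library, an FPKM value and an estimated count made by the authors. The submitters' processing notes name HISAT2 2.0, StringTie 1.3.0, Bowtie 0.12.2 and the build mm8 without roles. Positions are printed as deposited, and all 49 genes overlap their RefSeq gene in GRCm38.p6. Low counts clustered at 4 (29.0% of values from 1 to 12), so a fragment may be worth about 4 counts.

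Estimated counts were whole numbers and were tested in R 4.3.3 with the edgeR 4.0.16 quasi-likelihood test. All 12 libraries shared one fit of 4 group means with total counts as library sizes, for genes with FPKM of at least 1 in at least 3 libraries. Benjamini-Hochberg adjustment covered 5527 genes, and a call needed an adjusted p under 0.05 and a fold over 2. Ratios of catalytic subunits were compared by two-sided exact permutation tests. Scripts were tested on simulated data. Alternatives were TMM, DESeq2 1.42.0, limma 3.58.1 on log2(FPKM + 1) or log2(FPKM + 0.1), haemoglobin left out, other filters, no fold minimum, a replicate block, the 6 libraries of a comparison alone and each library left out. Counts divided by 4, Solvent 1 and scivMSC 2 left out together, and Psmc3ip and Psme2b left out were added after seeing the data.

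Libraries of a group were not repeats of one library (chi-square per degree of freedom 9.13 to 44.8). Each library is 1 mouse, so p-values measure the spread between mice. Values were printed for the catalytic and activator genes, for the extremes of each other role in DNCB against Solvent and in scivMSC against DNCB, and for members called singly. The members and lists were chosen with earlier results of these data known. No sequence is printed, and some genes of the partner list are not reported by name here.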

Additional observations from a re-analysis of the deposited data

How the results depend on the processing

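The numbers of proteasome genes called are given in the order DNCB against Solvent, scMSC against DNCB, scivMSC against DNCB, scivMSC against scMSC, scMSC against Solvent and scivMSC against Solvent, where total-count scaling gave 1, 2, 29, 4, 0 and 31. TMM scaling gave 3, 1, 5, 6, 1 and 10, and DESeq2 gave 3, 0, 6, 7, 1 and 11, both with higher calls in scivMSC against either other disease group. Leaving out haemoglobin changed the count by over 1.5 times in DNCB against Solvent (3), scivMSC against DNCB (11, of which 10 were lower and Psmf1 higher) and scMSC against Solvent (2). Fits of 6 libraries gave 3, 5, 0 and 19 in DNCB against Solvent, scMSC against DNCB, scivMSC against scMSC and scMSC against Solvent. No filter gave 0 and 2 in scMSC against DNCB and scivMSC against scMSC. A mean FPKM of at least 5, which few members reach, gave 0, 0, 1 and 1 in scMSC against DNCB, scivMSC against DNCB, scivMSC against scMSC and scivMSC against Solvent. limma on log2(FPKM + 1) gave 0, 6, 2, 2 and 17 in all but DNCB against Solvent, and on log2(FPKM + 0.1) 7 in scivMSC against scMSC. Without Solvent 1 and scivMSC 2 the counts were 4, 18, 2 and 19 in scMSC against DNCB, scivMSC against DNCB, scivMSC against scMSC and scivMSC against Solvent. Without Psme2b, 0 were left in DNCB against Solvent. Leaving out 1 library gave 0 to 2, 0 to 4, 17 to 34, 1 to 26, 0 to 11 and 25 to 33. Among these alternatives, shares of all tested genes were computed only for TMM. The cause of these changes was not tested.

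The replicate numbers did not pair mice (correlations of deviations from -0.156 to 0.132 for the same number), and a replicate block moved the count by over 1.5 times only in scivMSC against scMSC, to 8. With the block the ratio p-values were 0.00174, 0.0156 and 0.0677. Ratio p-values ranged from 6.494e-05 to 0.00519 for Psmb8 over Psmb5, from 0.0011 to 0.00675 for Psmb9 over Psmb6 and from 0.0149 to 0.112 for Psmb10 over Psmb7 when 1 library was left out, and Psmb10 over Psmb7 passed at 0.00253 with FPKM + 1.

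Single log2 fold changes in scivMSC against DNCB turned positive with TMM and DESeq2 for Psmb5 (1.38 and 1.37), Psmb6 (0.86 and 0.85), Psmb8 (0.0934 and 0.0787), Psme1 (0.35 and 0.35), Psme2 (0.0827 and 0.0749), Psme4 (1.36 and 1.36), Psma2 (0.43 and 0.42), Psmb2 (0.35 and 0.34), Psmc3 (0.48 and 0.46) and Psmd10 (0.81 and 0.81), and without haemoglobin for Psmb5 (0.33) and Psme4 (0.25). In DNCB against Solvent Psmb1 turned to -0.11 with TMM, -0.0757 with DESeq2 and -0.12 without haemoglobin, and to -0.14, -0.09 and -0.18 without Solvent 2, Solvent 3 or DNCB 2. Without Solvent 1, alone or with scivMSC 2, Psmb5 turned to 0.0124, Psmb7 to 0.0145, Psmb9 to 0.31 and Psmc4 to 0.30. Leaving out 1 library gave ranges of -0.304 to 0.0124, -0.400 to 0.0145, -0.437 to 0.31 and -0.246 to 0.295 for these genes, and of -0.0945 to 0.969 for Psmd10. Psmc4 was 0.0598 with the block and 0.04 without DNCB 1, and Psmd10 turned negative without Solvent 3 (-0.0945) or DNCB 2 (-0.01). Counts per library limit Psmb7, Psmg2 and Psmg4, which reached 27, 11 and 4 counts.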
